A study of Brassica juncea with 21 samples.

Results

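MYB21 and MYB57 are MYB-domain transcription factors of the flower, and 4 gene copies of them were measured in the nectaries and leaves of Brassica juncea, an allopolyploid mustard. The table lists Brassica rapa transcripts to which the mustard's sequences were matched, so a copy here is a Brassica rapa gene. The copies were identified by the LOC number in the product description, and 4 were found among 13879 LOC numbers and 14398 transcripts. Both copies of MYB21, LOC103875192 and LOC103837005, match the Arabidopsis gene model AT3G27810.2, on chromosome 3 from 10308261 to 10310093 on the forward strand. The MYB57 copy LOC103870993 matches AT3G01530.1, on chromosome 3 from 210352 to 211151 on the reverse strand. The second MYB57 copy, LOC103858909, has no Arabidopsis match in the table and carries its name by the product description, MYB57-like, alone. Product names of this kind are not always those of the Arabidopsis match, since 4 other transcripts named after MYB21, MYB24 or MYB57 match MYB62 or MYB116. The spans are those of the Arabidopsis models with no build named, and exons and untranslated regions within them were not resolved.

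Arabidopsis MYB21 and MYB57 form a small clade with MYB24. They act downstream of jasmonate in opening flowers: jasmonate perceived by the receptor COI1 removes JAZ repressors, which otherwise bind MYB21 and MYB24, while the auxin response factors ARF6 and ARF8 are needed for floral jasmonate production and for MYB21 expression. In Arabidopsis the clade is known for stamen filament growth and petal expansion, with MYB57 acting redundantly with the other members, and MYB21 is also required for normal nectar secretion.

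Nectaries are the glands at the base of the flower that release nectar, and this mustard has a lateral and a median type, the latter written medial in the sample names. Lateral and median nectaries were each hand-dissected at 3 stages: pre-secretory, 24 h ahead of flower opening; secretory, in fully open flowers; and post-secretory, 12 h later than that. The labels give the same dissection window, 4 to 8 h after dawn, for all nectary groups. A stage 12 h later than the secretory one would fall at another time of day, which the labels do not settle. In comparisons with post-secretory nectaries, stage and time of day therefore cannot be told apart. Leaf, taken when secretory nectaries were, is the only other tissue. Each of the 7 groups had 3 libraries, 21 in all. A nectary library pooled about 100 nectaries from plants about 40 days old, with a different set of plants for each replicate, and plants were grown at 21 °C in 16 h of light. No cultivar, genotype or treatment is named in the labels.

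The deposited table holds 1 normalized whole-number score for each group and transcript, so replicate spread, intervals and tests could not be had, and "higher" and "lower" describe group scores only. A difference was called at 2-fold or more on log2 of the score plus 1, over the 14390 transcripts with a score of at least 1 in at least 3 groups, which included all 4 copies. The depth of each library is unknown. Columns totalled 7081592 to 11197495, and the lateral post-secretory column lacks the normalization mark of the other 6, so that its values were taken to be on the same scale. Its 75th percentile, 476, lies within the range of the other columns, 450 to 543.75. The marked columns differ in this percentile too, so it cannot show that the scale is shared. In dissected tissue, fewer cells of a type and less RNA per cell cannot be told apart. Markers of the labelled tissues were present: CRC, SWEET9, CWINV4 and JMT, genes of nectary identity and function, summed to between 28181 and 380680 in the nectary groups and 299 in leaf. The leaf photosynthesis markers summed to 894510 in leaf and between 19871 and 37226 in nectaries.

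Within both nectary types MYB21 scores were high before secretion and lowest after it, and MYB57 scores were highest during secretion. MYB21 LOC103875192 had a score of 13269 in lateral pre-secretory, 28921 in lateral secretory and 1502 in lateral post-secretory nectaries. In median nectaries its scores at the same stages were 11536, 11381 and 3927, and leaf had 25. It was therefore highest in lateral secretory nectaries, level between the first 2 median stages, and lowest among nectaries after secretion in the lateral type.

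The other MYB21 copy, LOC103837005, was already high before secretion. Its scores were 5160, 4454 and 177 in lateral nectaries from pre-secretory to post-secretory, and 3450, 892 and 286 in median nectaries, against 5 in leaf. Median secretory nectaries held 17.3% of its highest score, whereas lateral secretory nectaries held 86.3%.

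MYB57 LOC103870993 was low in lateral nectaries before secretion, at 34, and stood at 5559 during and 1085 after it. Median nectaries had 622, 6976 and 2041 at the same stages, and leaf had 4. Both secretory groups were thus the highest, and the median pre-secretory score was 8.92% of the highest one where the lateral was 0.487%.

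MYB57 LOC103858909 had the same order of its 3 highest groups. Lateral nectaries had 8, 685 and 21 from pre-secretory to post-secretory, median nectaries had 256, 1840 and 401, and in leaf it was listed at 0. Its lateral post-secretory score was 1.14% of its highest, against 15.6% for LOC103870993.

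**Figure D1:**
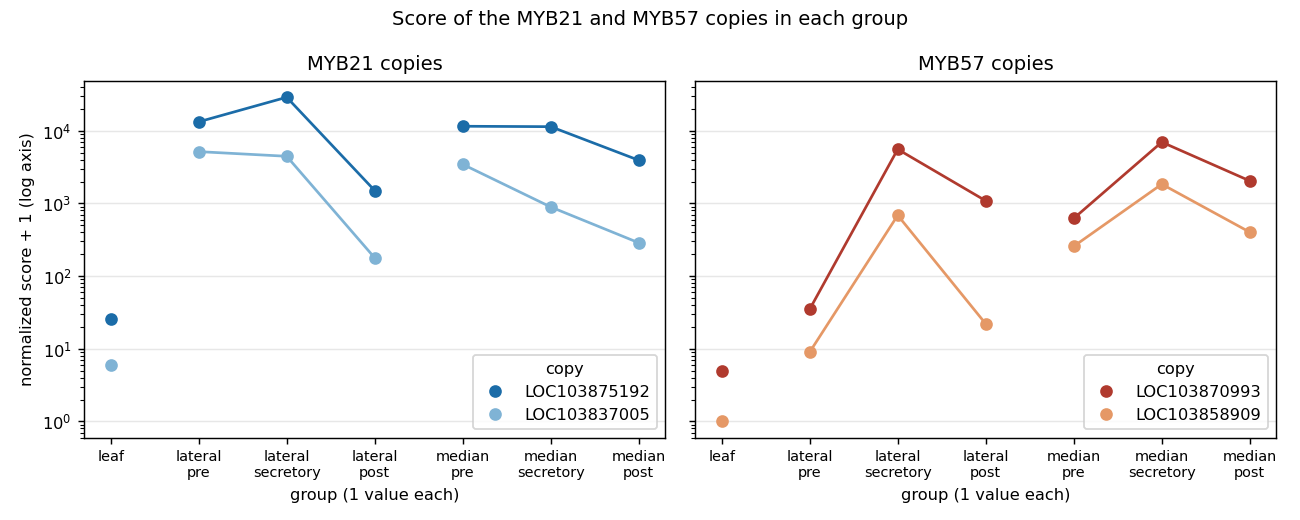
Normalized score plus 1 of each copy on a log axis, by group, with MYB21 on the left and MYB57 on the right and 1 value per group with no error bar; lines join the stages of 1 nectary type. In each nectary type MYB21 copies start high and are lowest after secretion. MYB57 copies climb from 34 and 8 in lateral pre-secretory nectaries to 5559 and 685 at secretion.

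The order of neighbouring groups was close in places. For LOC103875192 the lateral pre-secretory, median pre-secretory and median secretory scores (13269, 11536 and 11381) lay within 2-fold of each other, as did the lateral pre-secretory and secretory scores of LOC103837005 (5160 and 4454). For LOC103870993 the highest 2 scores (6976 and 5559) did too. With no replicate spread these neighbours cannot be ordered. Across the 6 nectary groups the highest score was 19.3 times the lowest for LOC103875192 and 29.2 times for LOC103837005. The corresponding ranges were 205 times for LOC103870993 and 230 times for LOC103858909.

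Against leaf, all 4 copies were called higher in each of the 6 nectary groups. In the table as a whole, 23% of transcripts were called higher than leaf in lateral pre-secretory, 29.6% in lateral secretory and 19.7% in lateral post-secretory nectaries. The shares for median nectaries were 21.8%, 25.1% and 22% in the same order of stages. These 6 comparisons share the leaf column, and for LOC103858909, listed at 0 there, no fold is given. LOC103875192 was 510-fold higher than leaf in lateral pre-secretory nectaries and 1112-fold higher in lateral secretory ones. LOC103837005 was 860-fold higher than leaf in lateral pre-secretory and 149-fold higher in median secretory nectaries. Of these 3 copies LOC103870993 had the widest span, from 7-fold in lateral pre-secretory to 1395-fold in median secretory nectaries, where only 2 of the 14390 transcripts had a larger log2 difference from leaf. The largest there was that of LOC103858909, and the ranks of these MYB57 copies rest on leaf scores of 4 and 0. With leaf scores of 5 or less, the folds of 3 copies depend on the pseudocount: at 10 in place of 1, LOC103837005 was 345-fold higher in lateral pre-secretory and 60.1-fold higher in median secretory nectaries, and LOC103870993 was 3.14-fold and 499-fold higher. The lateral pre-secretory scores of the MYB57 copies, 34 and 8, are near the bottom of the scale, and the call of LOC103858909 there was lost with a pseudocount of 10 (log2 0.85).

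At the step from before to during secretion the MYB57 copies were alike in direction, and the MYB21 copies differed from each other. Both MYB57 copies were higher at the secretory stage in both nectary types, a pattern shared by 13.4% of all transcripts. In lateral nectaries LOC103870993 was 159-fold higher (log2 7.31) and LOC103858909 was 76.2-fold higher (log2 6.25), the 34th and 76th largest differences of 14390. The second rests on a score of 8 and was 38.6-fold with a pseudocount of 10. In median nectaries, where both copies were already present before secretion, the differences were 11.2-fold and 7.16-fold (log2 3.49 and 2.84). MYB21 LOC103875192 was 2.18-fold higher in lateral nectaries and differed by a log2 of −0.02 in median ones. MYB21 LOC103837005 differed by a log2 of −0.21 in lateral nectaries and was 3.86-fold lower in median ones.

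In all, 3 of 4 copies were called higher and 0 lower at lateral secretion, where 21.5% of all transcripts were higher and 23.5% lower. In median nectaries 2 copies were higher and 1 lower, beside 17.6% and 18.4% of all transcripts. When column totals were made equal, the lateral split of all transcripts became 2024 higher and 5111 lower and the median split 1752 and 3873, from 3094 and 3386 and from 2532 and 2641. Under that scaling LOC103875192 fell short of 2-fold in lateral nectaries, at a log2 of 0.63, and after quantile normalization it was 0.30. The 4 MYB57 calls held under all 7 alternatives of scaling, pseudocount and summing of transcripts.

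Scores of pollen marker genes moved alongside MYB57 at the onset of secretion, but most did not at its end. The 3 of 4 pollen marker loci that were measured (AGP6, VGD1 and ACA9, as 4 transcripts, none at 0 in any group) summed to 600 in lateral pre-secretory, 3909 in lateral secretory and 2984 in lateral post-secretory nectaries. The median sums were 1123, 6110 and 9677, and leaf had 176. Over the 6 nectary groups the log2 sum had a Pearson r of 0.85 with LOC103870993 and 0.69 with LOC103858909, and of −0.26 and −0.64 with the MYB21 copies LOC103875192 and LOC103837005. The sum was highest in median post-secretory nectaries, in which both MYB57 copies were lower than at median secretion. At the lateral end of secretion ACA9 alone of the 4 transcripts was lower, at 942 against 2324. AGP6 had 370 against 276, and the VGD1 copies had 792 against 611 and 880 against 698. The part of pollen or stamen tissue in the MYB57 scores was not tested.

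The MYB21 copies moved with the summed nectary markers and with markers of other floral organs. Over the 6 nectary groups LOC103875192 had an r of 0.98 and LOC103837005 one of 0.91 with the log2 sum of those markers, where the MYB57 copies had −0.05 and 0.27. The leaf photosynthesis sum had an r of 0.51 with LOC103875192 and 0.52 with LOC103837005. The nectary marker sum was 256125, 380680 and 28181 in lateral and 148460, 196242 and 50026 in median nectaries. In lateral secretory nectaries CWINV4 and SWEET9 made up most of it, at 147338 and 147160. Single markers differed from the sum. CRC had 63385, 39366 and 8025 in lateral and 58387, 48454 and 10577 in median nectaries. Against the pre-secretory stage, 2 of the 6 transcripts were higher and 3 lower after median secretion, beside 19.8% and 21.7% of all transcripts. The higher ones were SWEET9, at 8959 against 1367, and JMT LOC103829478, at 13619 against 5968. AP3, a petal and stamen identity gene, ranged from 188 to 298 in pre-secretory and secretory nectaries and was 70 and 80 in lateral and median post-secretory ones. Its r was 0.85 with LOC103875192 and 0.91 with LOC103837005, the latter as high as that of the nectary markers. The carpel markers, 4 transcripts of 3 loci with none at 0, summed to 16220, 30988 and 8812 in lateral and 20284, 33095 and 8397 in median nectaries, with r of 0.85 and 0.68. SHP2 made up most of that sum, such as 25226 in lateral secretory and 29798 in median secretory nectaries. The part of other floral tissue in the MYB21 scores was not tested.

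After secretion all 4 copies were lower in both nectary types. A 2-fold lower score in both types was seen in 8.64% of all transcripts, with 18.4% lower in lateral and 15% lower in median nectaries. In lateral nectaries LOC103858909 was 31.2-fold lower than at secretion, LOC103875192 19.2-fold lower and LOC103870993 5.12-fold lower, and LOC103837005 went from 4454 to 177 (log2 −4.65). In median nectaries they were 4.58-fold, 2.90-fold and 3.42-fold lower in the same order, and LOC103837005 was 3.11-fold lower. The lateral difference was thus the larger for each copy, least so for LOC103870993. Each lateral value here rests on the column with no normalization mark. That of LOC103858909 also rests on a post-secretory score of 21 and was 22.4-fold with a pseudocount of 10. Both steps use the same secretory scores, so a high secretory score enters each of them with opposite sign.

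Comparison of the post-secretory with the pre-secretory stage, which leaves the secretory columns out, divided the copies by gene. Both MYB21 copies were lower after secretion than before it. LOC103875192 was 8.83-fold lower in lateral and 2.94-fold lower in median nectaries, and LOC103837005 was 29.0-fold and 12.0-fold lower. Both MYB57 copies were higher in lateral nectaries, LOC103870993 by 31.0-fold and LOC103858909 by 2.44-fold. The last rests on scores of 8 and 21 and fell short of 2-fold with a pseudocount of 10 (log2 0.78) and after quantile normalization (0.63). In median nectaries LOC103870993 was 3.28-fold higher and LOC103858909 differed by a log2 of 0.65, short of a call. All transcripts were called higher in 17% and lower in 14.3% of cases in lateral nectaries, beside 2 and 2 of the copies. In median nectaries the shares were 19.8% and 21.7%, beside 1 and 2 copies. The lateral values again rest on the column with no normalization mark.

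**Figure D2:**
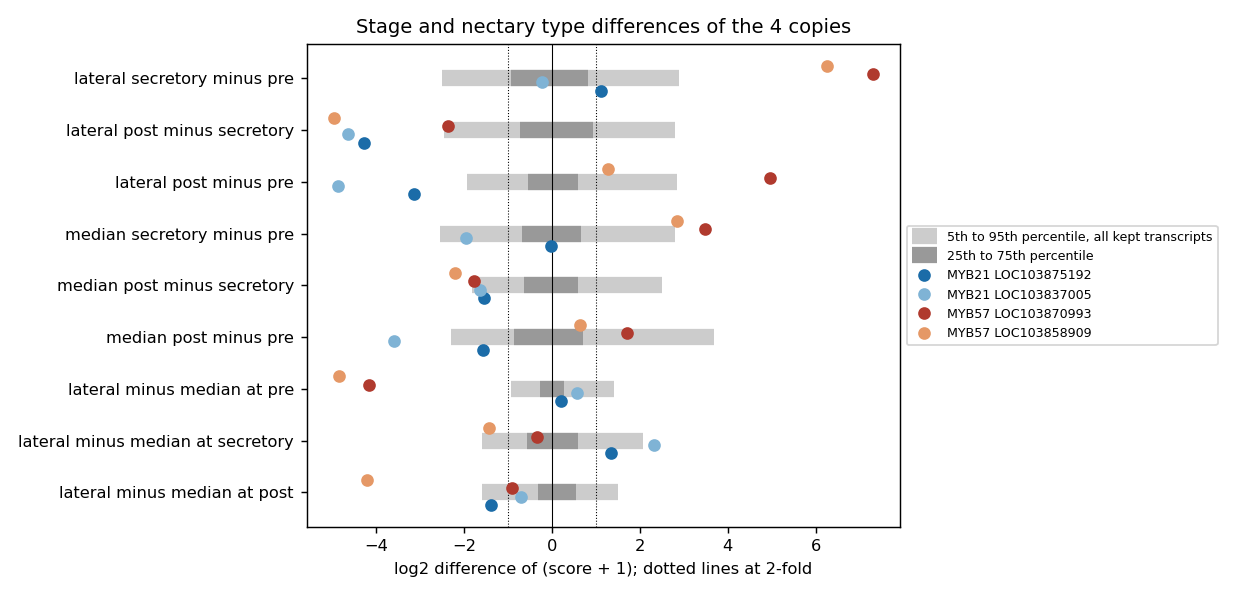
Log2 difference of the score plus 1 for each copy (coloured points, 1 value each) in 9 comparisons of stage or nectary type, over the 5 to 95 (light) and 25 to 75 (dark) percentile ranges of all 14390 transcripts. MYB57 points lie far to the right at lateral onset (7.31 and 6.25) and far to the left for lateral minus median before secretion (−4.15 and −4.84).

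Before secretion, the stage with the fewest calls between nectary types, MYB57 and not MYB21 differed between them. At the pre-secretory stage 7.9% of all transcripts were called higher in lateral and 4.42% lower, and 2 of the 4 copies, both of MYB57, were lower in lateral nectaries. LOC103870993 had 34 in lateral against 622 in median nectaries, 17.8-fold lower, and LOC103858909 had 8 against 256, 28.6-fold lower (14.8-fold with a pseudocount of 10). These were the 37th and 21st lowest of 14390 log2 differences. The MYB21 copies lay within 2-fold, with log2 differences of 0.20 for LOC103875192 and 0.58 for LOC103837005.

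At the secretory stage the MYB21 copies were the ones higher in lateral nectaries, where 14.7% of all transcripts were called higher and 12.9% lower. LOC103875192 was 2.54-fold and LOC103837005 4.99-fold higher in lateral nectaries. LOC103858909 was 2.68-fold lower there, and LOC103870993 had a log2 difference of −0.33. At the post-secretory stage no copy was higher in lateral nectaries, beside 12.6% of all transcripts, and 2 were lower, beside 9.41%. These were LOC103858909, with 21 against 401 (18.3-fold), and LOC103875192, with 1502 against 3927 (2.61-fold). LOC103870993 had a log2 difference of −0.91, which passed 2-fold with median-of-ratios factors (−1.04), and LOC103837005 had −0.69. Each of these values rests on the column with no normalization mark. The MYB57 copy LOC103858909 was thus lower in lateral nectaries at all 3 stages, and its score never came above 685 in that type.

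The difference between types in each step was taken as the lateral log2 step minus the median one. For the onset of secretion it was positive and past 2-fold for all 4 copies, beside 10.9% of all transcripts: 3.83 for LOC103870993, 3.41 for LOC103858909, 1.74 for LOC103837005 and 1.14 for LOC103875192. The last of these dropped below 2-fold after quantile normalization, at 0.92. It was also below it, at 0.89, with equal column totals after LOC103828338, the largest transcript of the median secretory column, was left out. The difference shares its pre-secretory columns with the comparison of types before secretion, where the MYB57 copies were lower in lateral nectaries. For the end of secretion it was negative and past 2-fold for 3 copies, beside 15.3% of all transcripts. The values were −3.01 for LOC103837005, −2.77 for LOC103858909 and −2.73 for LOC103875192, and LOC103870993 had −0.58 (−0.34 after quantile normalization). For post-secretory against pre-secretory nectaries, 1 copy was past 2-fold upward (13.1% of all transcripts) and 2 downward (11.6%). LOC103870993 had 3.24, LOC103875192 −1.59 and LOC103837005 −1.27. All step differences that involve the post-secretory stage use the lateral column with no normalization mark.

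Copies of 1 gene were compared through the ratio of their scores. The ratio itself depends on transcript length, which the table does not give, so only its change between groups is read, and a factor common to a whole column cancels in it. As a background, 1054 pairs of genes that match the same single Arabidopsis locus were used, the MYB21 pair among them. The MYB57 pair is outside this set, since LOC103858909 has no match.

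Over the stages the MYB21 ratio moved toward LOC103875192 in both nectary types. LOC103875192 scored 2.57 times LOC103837005 in lateral pre-secretory, 6.49 times in lateral secretory and 8.49 times in lateral post-secretory nectaries. In median nectaries the ratios were 3.34, 12.8 and 13.7. The change at onset was 2.52-fold in lateral nectaries (log2 1.34) and 3.81-fold in median ones (log2 1.93). Pairs with a change of 2-fold or more either way at onset made up 21.6% in lateral and 20.2% in median nectaries, and 69 of the 1054 pairs changed at least as much as the MYB21 pair in the median type. At the end of secretion the MYB21 ratio changed by less than 2-fold in both types (log2 0.38 and 0.10), while 22.9% and 18.4% of pairs passed it. Between post-secretory and pre-secretory nectaries it changed 3.28-fold in lateral and 4.09-fold in median nectaries, where 17.5% and 20.6% of pairs passed 2-fold. Between nectary types it stayed under 2-fold at each stage, with log2 changes of −0.38, −0.97 and −0.70 from pre-secretory to post-secretory.

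Changes of a ratio between groups were taken on score plus 1, so they differ slightly from quotients of the score ratios given here. The MYB57 ratio departed most in lateral post-secretory nectaries. LOC103870993 scored 4.25, 8.12 and 51.7 times LOC103858909 in lateral nectaries from pre-secretory to post-secretory, and 2.43, 3.79 and 5.09 times in median ones. The first and the last of the lateral ratios rest on LOC103858909 scores of 8 and 21. Between lateral secretory and post-secretory nectaries the ratio changed 6.09-fold, and 53 of 1054 pairs changed as much. Lateral and median post-secretory nectaries differed 9.72-fold in the ratio. There 10.9% of pairs passed 2-fold and 12 were as far apart. The types differed 2.14-fold at secretion (18.2% of pairs past 2-fold) and 1.60-fold before it (9.87%). Each change kept its side of 2-fold with a pseudocount of 10 and after quantile normalization. Their size was less stable for MYB57: the change between lateral secretory and post-secretory nectaries went from a log2 of 2.61 to 3.52 after quantile normalization, the difference between types after secretion from 3.28 to 3.89, and that before secretion from 0.68 to 0.041 with a pseudocount of 10.

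**Figure D3:**
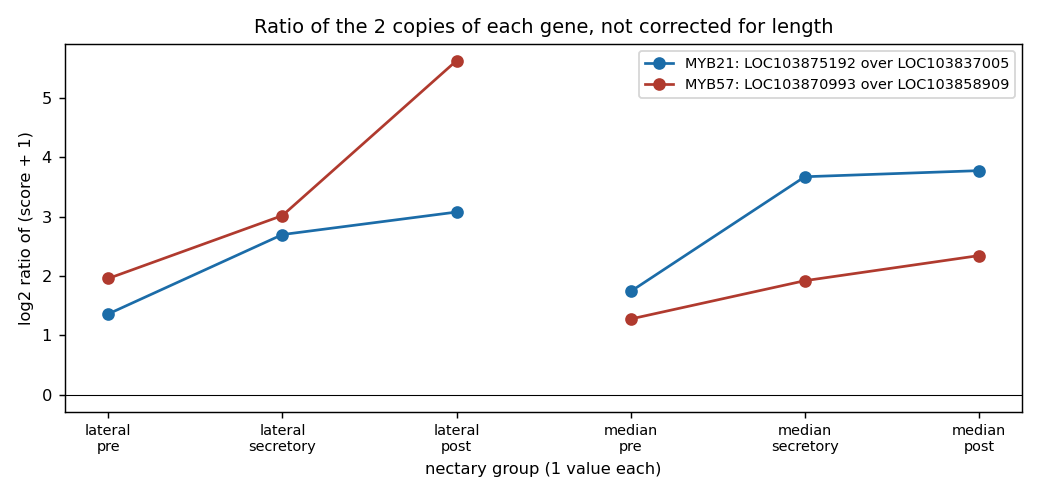
Log2 ratio of the score plus 1 of LOC103875192 over LOC103837005 (MYB21) and of LOC103870993 over LOC103858909 (MYB57) in the 6 nectary groups, 1 value each, not corrected for transcript length. The MYB57 ratio reaches 5.63 in lateral post-secretory nectaries, and the MYB21 ratio goes from 1.74 to 3.67 between median pre-secretory and secretory nectaries.

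Likeness of pattern was described by Pearson's r on log2 of the score plus 1. The 7 points of each r share their columns, leaf stands far below the nectary groups, and no p is given. The 2 MYB21 copies had an r of 0.96 with each other and the 2 MYB57 copies one of 0.93. Between MYB21 and MYB57 r lay from 0.51 to 0.76 over 7 groups. Over the 6 nectary groups, with leaf left out, it was 0.90 for the MYB21 pair and 0.86 for the MYB57 pair, and from −0.35 to 0.38 across genes. The median r of the 1054 background pairs over 7 groups was 0.86, with quartiles of 0.61 and 0.95. Without the unmarked lateral post-secretory column the MYB57 pair had an r of 0.99. LOC103870993 was then the transcript nearest to LOC103858909 among 11156 compared, where it ranked 34th over 7 groups.

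The transcripts nearest to each copy were named among those 11156, which had a score of at least 100 in some group and either a gene name or a match in Arabidopsis. Nearest to MYB21 LOC103875192 were a CCR4-like deadenylation protein (LOC103830169, r 0.996), the F-box/kelch-repeat protein SKIP11 (LOC103875459, r 0.99) and MYB44 (LOC103829517, r 0.99). The first 2 spanned 1.39-fold and 2.18-fold over the nectary groups. MYB44, a stress-related MYB factor, spanned 5.07-fold, with 4051, 5583 and 1101 in lateral and 4732, 4170 and 1270 in median nectaries and 65 in leaf. Nearest to MYB21 LOC103837005 were a putative F-box protein (LOC103828116, r 0.995), the AP-1 adaptor subunit sigma-1 (LOC103845962, r 0.99) and a MYB63 match (LOC103830495, r 0.99). The MYB63 match had 1103, 867 and 135 in lateral and 1008, 566 and 199 in median nectaries, 8.17-fold from highest to lowest, where the other 2 spanned 1.54-fold and 1.80-fold.

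For MYB57 LOC103870993 the nearest were a CTD small phosphatase-like protein (LOC103827734, r 0.99), ENHANCED DISEASE RESISTANCE 2 (LOC103833740, r 0.98) and ACA9 (LOC103859893, r 0.98). ACA9 is a plasma membrane calcium pump of pollen and is one of the pollen markers above. Its scores were 250, 2324 and 942 in lateral and 742, 2747 and 2408 in median nectaries.

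MYB57 LOC103858909 was nearest to an (E)-beta-ocimene synthase (LOC103869246, matched to TPS02, r 0.98), an enzyme that makes a volatile monoterpene. It had 36, 7446 and 150 in lateral and 3121, 22486 and 3354 in median nectaries, and 19 in leaf. Over the nectary groups alone its r was 0.997, the highest of all transcripts compared, and its scores spanned 625-fold. The lysine histidine transporter-like 7 (LOC103831015, r 0.98), an amino acid transporter, had 71, 2200 and 326 in lateral and 1468, 10840 and 3619 in median nectaries. The third was an uncharacterized transcript (LOC103860431, r 0.98) with a 3.14-fold span.

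**Figure D4:**
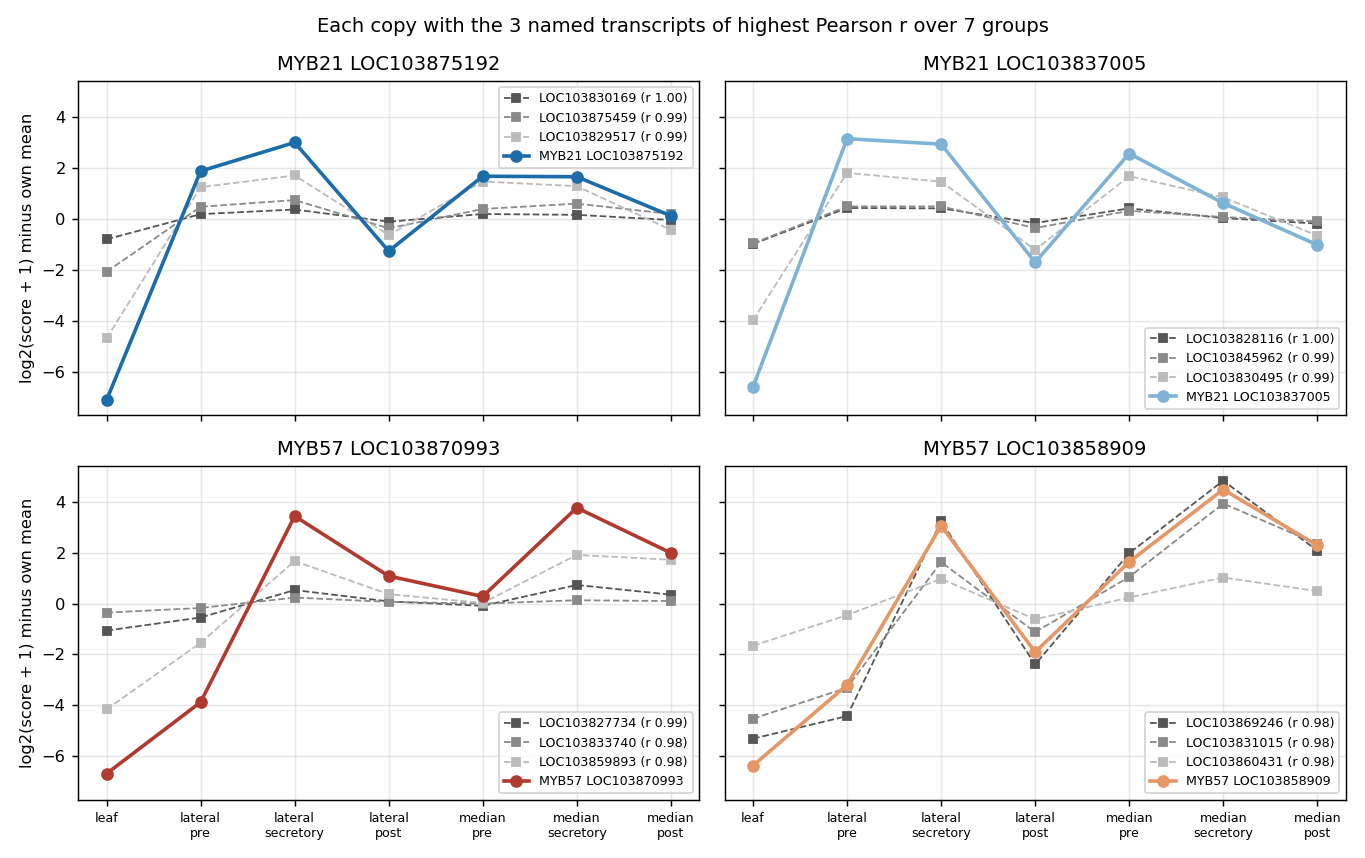
Log2 of the score plus 1, less each transcript's own mean over 7 groups, for each copy (coloured circles) and the 3 transcripts nearest to it (grey squares), 1 value per group. The ocimene synthase LOC103869246 spans 625-fold over nectary groups beside MYB57 LOC103858909 with 230-fold, whereas LOC103830169 shares the shape of MYB21 LOC103875192 over 1.39-fold.

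Other genes of the jasmonate and MYB21 pathway were read from lists of Arabidopsis loci, as 37 transcripts of 26 of the 55 loci listed. At the onset of secretion 8 of the 37 were called higher and 14 lower in lateral nectaries (median log2 −0.55, against −0.04 for all transcripts). In median nectaries 5 were higher and 17 lower (−0.63 against 0.03). Over all transcripts 21.5% were higher and 23.5% lower at lateral onset and 17.6% and 18.4% at median onset, so the count of higher calls on the list at lateral onset is near that of the background.

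Among jasmonate synthesis genes 2 of 10 transcripts were higher and 4 lower at lateral onset, and 2 and 5 at median onset. The 2 higher calls are near the background of 21.5% and 17.6%, and the lower calls stand beside 23.5% and 18.4%. The lipoxygenase LOX2 is an enzyme early in jasmonate synthesis. Its copy LOC103830993 scored 38280, 2487 and 38 in lateral and 42550, 3524 and 185 in median nectaries from pre-secretory to post-secretory, and LOC103830390 scored 2952, 128 and 4 and 3265, 300 and 26. OPR3 (LOC103860353), a reductase needed for jasmonate in Arabidopsis stamens, had 1731, 705 and 535 in lateral and 1412, 139 and 355 in median nectaries. The oxidase ACX1 (LOC103869185) went the other way at onset, from 9579 to 39323 in lateral and from 12388 to 27036 in median nectaries. JMT, which turns jasmonic acid into its methyl ester, had 3 copies of which LOC103829478 was higher at onset in both types, at 10589 against 2451 in lateral and 14678 against 5968 in median nectaries. LOC103872765 had lower scores at onset, 21729 against 41896 in lateral and 23845 against 35658 in median nectaries, within 2-fold. LOC103835835 had higher ones, 14498 against 9085 and 7548 against 6339, also within 2-fold. JMT is also among the nectary markers.

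Of 13 receptor and repressor transcripts, 2 were higher and 6 lower at lateral onset, beside 21.5% and 23.5% of all transcripts, and 0 and 7 at median onset, beside 17.6% and 18.4%. The repressor JAZ5 (LOC103835959) had 2366 and 279 in lateral and 1507 and 238 in median nectaries before and during secretion. JAZ9 (LOC103831604) had 1471 and 200 in lateral and 1341 and 455 in median nectaries, and JAZ6 (LOC103852783) had 909 and 224 and 689 and 136. A JAZ10 copy (LOC103856007) was higher at lateral secretion, 1801 against 362, and had 506 and 753 in median nectaries. The other JAZ10 copy, LOC103846592, had 945 and 814 in lateral and 492 and 932 in median nectaries and was not called. At lateral onset a COI1 copy (LOC103865754) was also higher, with a score of 47 before and 132 during secretion. The other COI1 copy, LOC103857890, had 404 and 755 and was not called.

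Upstream regulators, the auxin response factors, DELLA proteins and MYC factors, were called in 1 direction at each step: 0 of 9 transcripts were higher and 4 lower at lateral onset (21.5% and 23.5% of all transcripts), and 0 and 5 at median onset (17.6% and 18.4%). After secretion 7 of 9 were higher in lateral and 4 of 9 in median nectaries, with 0 lower in both, where 23.9% and 17.5% of all transcripts were higher and 18.4% and 15% lower. Both steps use the same secretory scores. Between post-secretory and pre-secretory lateral nectaries 0 of 9 were higher and 1 lower, beside 17% and 14.3% of all transcripts. For median nectaries the counts were 1 and 2, beside 19.8% and 21.7%. ARF8 (LOC103863707) scored 365, 99 and 541 in lateral and 480, 164 and 287 in median nectaries. MYC2 (LOC103874758), a jasmonate-response regulator, had 1443, 452 and 1571 in lateral and 1004, 434 and 1141 in median nectaries. The DELLA protein RGL2 (LOC103855161) had 142, 55 and 46 in lateral and 107, 8 and 38 in median nectaries. These ARF8 and MYC2 transcripts were thus lowest at secretion in both nectary types. So were ARF6 (LOC103840407), the DELLA copies of RGA (LOC103839478 and LOC103827572) and the MYC3 copy LOC103827709. RGL2, ARF8 LOC103831066 and MYC3 LOC103839580 were not. The other ARF8 copy, LOC103831066, had 1868, 694 and 1669 in lateral and 2323, 1232 and 1145 in median nectaries. MYC3 (LOC103839580), named after its values were seen, was lowest before secretion in both types, at 177, 223 and 216 and at 85, 118 and 180.

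Candidate targets and nectary output genes were higher at lateral onset in 4 of 5 cases and at median onset in 3 of 5, with 0 lower, beside 21.5% and 17.6% of all transcripts. PIN6 (LOC103832163), an auxin carrier of nectaries, was, like MYB57, lower in lateral nectaries before secretion, at 32 in lateral and 9790 in median nectaries. It stayed lower in lateral nectaries later, at 1450 against 26085 and 15 against 2138. FLS1 (LOC103847177), a flavonol synthase, had 232 and 1152 before secretion and 868 and 1119 during it in lateral and median nectaries. SWEET9 (LOC103857843), the nectary sucrose exporter and also a nectary marker, was instead higher in lateral nectaries before secretion, 11858 against 1367. TPS03 (LOC103833974), a terpene synthase, had 5, 247 and 1794 in lateral and 17, 588 and 966 in median nectaries, and so was highest after secretion, when all 4 MYB copies were lower. Of the related floral MYB loci on the list (MYB24, MYB108, MYB11, MYB12 and MYB111) 0 of 5 had a transcript matched to the locus and they were not analysed here. A transcript with the product name MYB108, LOC103866398, matched MYB2 instead. It was highest in median post-secretory nectaries, at 419, and was counted with the other MYB factors.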

How the data were processed

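RNA sequencing libraries (TruSeq RNA v2, per the labels) of leaf and of 6 nectary groups were used, 3 per group. The authors deposited 1 table with a normalized expression score per group and transcript, given in whole numbers. Per the file headers, 6 of 7 columns are marked UQN, read here as upper-quartile normalized. Of the aligner, the counting, the build and how 3 libraries became 1 value, nothing is stated in the labels or headers used. The table has no separate rows for the mustard's own copies of a Brassica rapa transcript, and reads of near-identical MYB copies may be shared between them.

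From these scores, differences of log2(score + 1) were taken for 15 comparisons and 3 differences of steps, and called at 2-fold (Python 3.11.15, numpy 2.4.6, pandas 2.3.3). The filter, a score of 1 or more in 3 groups or more, left 14390 transcripts and removed 8, and the scripts were checked on simulated data. Named genes were the 4 copies, up to 4 transcripts of each list with the largest difference and a score of at least 10, and the 3 nearest patterns per copy. The copies of COI1, MYC3, ARF6 and RGA were named after their values were seen. So were JAZ10 LOC103846592, JMT LOC103872765 and LOC103835835, the MYB108-named transcript and some single tissue markers. Alternatives were the pseudocount (0.1 and 10), the filter, column scaling, summed transcripts per gene, the copy counted per locus and the groups or measure behind r. Copies and lists were chosen with earlier results of these data known. Background pairs were added after the data were seen. Promoter motifs, planned at first, were not examined because no sequence was used here.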

Additional observations from a re-analysis of the deposited data

Results flagged for a closer look

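For 5 results the direction differed between nectary types or between stages. With 1 score per group these differences were not tested. MYB21 LOC103875192 was higher at the onset of secretion in lateral nectaries (log2 1.12) and level in median ones (−0.02), a difference of 1.14. For the same copy the lateral minus median log2 difference was 0.20 before and 1.35 during secretion and −1.39 after it, so that the pre-secretory and post-secretory values differed by 1.59 and the secretory and post-secretory values by 2.73. MYB21 LOC103837005 showed the same turn, with 0.58 and 2.32 before and during secretion and −0.69 after it, differences of 1.27 and 3.01. In 4 of these 5 results the lateral post-secretory column enters, the one without the normalization mark. Neither MYB57 copy changed direction in this way.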

How the results depend on the processing

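No paired analysis was possible because the table holds 1 value per group, and for the same reason no replicate could be left out. Each of 72 differences of the copies was recomputed under 7 alternatives, and 495 of 504 recomputed values kept their side of 2-fold and 494 their direction as well. The exception in direction was the difference between types of MYB57 LOC103858909 for post-secretory against pre-secretory nectaries, 0.64 and −0.0294 after quantile normalization, both short of 2-fold. The lateral onset difference of MYB21 LOC103875192 (1.12) was 0.63 with columns scaled to the same total, 0.65 with that scaling after leaving out LOC103828338, which holds 13.2% of the median secretory column, and 0.30 after quantile normalization. Its difference between types at onset (1.14) was 0.89 and 0.92 under the last 2 of these. MYB57 LOC103870993 passed 2-fold for lateral against median after secretion with median-of-ratios factors (−1.04 in place of −0.91). MYB57 LOC103858909 fell below 2-fold with a pseudocount of 10 for lateral pre-secretory against leaf (0.85) and for lateral post-secretory against pre-secretory (0.78, and 0.63 after quantile normalization). Its scores there are 8 and 21, and the cause of the other changes was not tested. The same-total median of all transcripts was −0.53 at lateral and −0.37 at median onset and 0.70 and 0.46 at the end of secretion, where higher and lower calls went from 3445 and 2652 to 5757 and 1383 in lateral and from 2515 and 2157 to 4048 and 1063 in median nectaries. That scaling also moved the calls against leaf to 4347 and 2293 in lateral pre-secretory, 4624 and 1470 in lateral post-secretory and 4163 and 2287 in median post-secretory nectaries, and the pathway median at lateral end from −0.73 to −0.0903. The pathway median at the median end changed sign, from −0.11 to 0.42 with that scaling and 0.20 with 1 copy per locus, as did that for lateral against median after secretion (−0.13 to 0.0049). With a pseudocount of 10 all 6 folds against leaf of each of 3 copies moved by over 1.5 times, and 3 of 12 within nectaries for LOC103858909. Quantile normalization gave 2403 and 2699 for lateral post-secretory against leaf in place of 2832 and 2115. Without LOC103828338 the lateral against median calls at secretion were 1693 and 2321 in place of 2115 and 1863, those at the median end 3324 and 1350, and the differences between types 1070 and 2446 at onset (from 1568 and 1578) and 3684 and 1536 at the end (from 2484 and 2207), the last being 1942 and 2792 with median-of-ratios factors. Likeness within pairs moved by under 0.1. Across genes, leaving out leaf gave r of 0.0358 and 0.38 for LOC103875192 with LOC103870993 and LOC103858909, and −0.35 and −0.0037 for LOC103837005 with the same, and Spearman's rho over 7 groups gave 0.32, 0.43, 0.18 and 0.29. The 3 nearest transcripts depended on the groups used: without leaf, 0 of 3 stayed for 3 copies and 1 of 3, the ocimene synthase, for LOC103858909. The copy ratio changes kept their calls in 36 of 36 recomputed values. The filter on low values moved no background count by over 1.5 times.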

Other observations

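A further 4 transcripts carry MYB21, MYB24 or MYB57 in their product names but match other Arabidopsis loci, and their courses differed from those of the 4 copies. The MYB57-named LOC103840557 and the MYB24-like LOC103829147, both matched to MYB116, had their highest scores in median post-secretory nectaries, 2175 and 1191. LOC103840557 scored 19, 14 and 420 in lateral and 47, 64 and 2175 in median nectaries from pre-secretory to post-secretory. The MYB24-like LOC103852467 and the MYB21-like LOC103830976, both matched to MYB62, were highest in lateral post-secretory nectaries, at 1857 and 356. LOC103852467 scored 16, 210 and 1857 in lateral and 14, 82 and 536 in median nectaries. All 4 were highest after secretion, whereas the 4 MYB21 and MYB57 copies were lower then than at secretion in both nectary types.

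Among all 31 other transcripts named or matched as MYB factors, these 4 included, 11 were highest in lateral secretory, 8 in median post-secretory, 4 in lateral post-secretory, 4 in median secretory and 2 each in lateral pre-secretory nectaries and leaf. Before secretion their lateral minus median differences ran from −2.39 to 3.83, and the values of the MYB57 copies, −4.15 and −4.84, lay below that range. At the end of secretion 13 of the 31 were lower and 11 higher in lateral nectaries, where 18.4% and 23.9% of all transcripts were. In median nectaries 10 were lower and 13 higher, beside 15% and 17.5%. This set was put together after the data were seen.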
